A study of Mus musculus with 12 samples.

Results

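The 9 genes Maob, Tmem178, Plxdc2, Kcnq3, Hmga2, Nov, Adamts17, Apba1 and Tifab were chosen by symbol, out of the 12199 genes counted in mouse bone marrow (BM), because earlier results of these same libraries showed them lower in WT mice than in every mutant genotype. All 9 were found in the table. The rise over WT is therefore what selected them, and it is described below without a test. Differences among the mutant genotypes were not themselves a criterion and were tested. The demand for a rise in every mutant genotype can still favour genes that differ little among them. Counts of members called among mutants are thus not independent of the choice. The labels give the material as BM mononuclear cells of C57BL/6 mice of 4 genotypes, whereas the methods name whole BM, and late neutrophil markers were abundant in every library (a summed 11080 to 28800 CPM). WT mice carried no engineered allele. DF mice were Dnmt3a Flox/+ with MxCre and carried Flt3 ITD/+. TF mice were Tet2+/- with Flt3 ITD/+. TFD mice combined all of these alleles. Every mutant mouse thus carried Flt3 ITD/+, and no group with that allele alone is among these samples. According to the methods, all mice including WT received poly(I:C), the agent that switches on the interferon-driven MxCre, which acts in blood cells but also in other tissues. The Tet2 allele was germline, so it was absent from birth, whereas the floxed Dnmt3a allele depends on MxCre and thus on the injection. The methods put the injection at 8 to 10 weeks of age and the analysis of such mice 8 to 9 weeks later. The WT mice came from a separate core facility rather than from the mutant crosses, so origin and genotype cannot be told apart in any comparison with WT.

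The 11 libraries with values were 3 WT, 3 DF, 3 TF and 2 TFD, with 8274153 to 15900904 counted reads each, and TFD replicate 3 was not analysed here. Of the targeted genes, Tet2 stood at 148 to 169 CPM (counts scaled to library size) in WT, 196 to 246 in DF, 136 to 205 in TF and 163 to 209 in TFD. Dnmt3a stood at 30.9 to 57.8 CPM in WT, 38.0 to 46.4 in DF, 57.7 to 86.2 in TF and 54.4 to 58.6 in TFD, so DF lay below TF and TFD but within the WT range. Flt3 stood at 20.8 to 30.1 CPM in WT and 33.0 to 130.4 in the mutants (log2 1.42, adjusted p = 0.000567, edgeR). Reads across a whole gene can come from the intact allele and from exons outside the deleted part, so these values check neither deletion. WT replicate 3, TF replicate 3 and TFD replicate 2 held at least 10000 Xist reads and the other libraries did not, so animals of both sexes are present in 3 of the 4 genotypes. DF replicate 1 held 538 Xist reads beside 1628 reads of the Y-linked Ddx3y, the most Xist reads among the libraries under that limit. In bulk RNA, more cells of a type and more RNA per cell cannot be told apart.

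FLT3 is a receptor tyrosine kinase of early blood progenitors, and its internal tandem duplication makes it signal without ligand. DNMT3A places methyl groups on cytosine at CpG sites, and TET2 oxidises them as a step towards their removal. The 9 genes belong to no single pathway. Nov (now Ccn3) and Adamts17 encode secreted proteins, Plxdc2 a membrane protein of the cell surface, Kcnq3 and Tmem178 membrane proteins that act in ion handling, Maob an enzyme of mitochondria, Hmga2 a chromatin protein, and Apba1 and Tifab intracellular adaptors. Several of them are best known from the nervous system or the embryo rather than from adult marrow.

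The deposited coordinates use mm10 (GRCm38). They place Plxdc2 at chr2:16356304-16755839, Adamts17 at chr7:66839735-67152625 and Hmga2 at chr10:120361275-120476935. Tifab lies at chr13:56173703-56178885, Nov at chr15:54745928-54753761 and Kcnq3 at chr15:65994915-66286224. Tmem178 lies at chr17:80944632-81001816, Apba1 at chr19:23758876-23949597 and Maob at chrX:16709281-16817366. Nov and Kcnq3 share a chromosome but lie far apart, and none of the 9 shares a chromosome with Tet2, Dnmt3a or Flt3. In the GENCODE annotation of the same build, Kcnq3 overlaps the antisense gene Gm27153, Hmga2 the antisense genes 1700006J14Rik and 9230105E05Rik, and Apba1 the antisense gene AC148021.1. The library kit was stranded, but whether the counting used strand is not given in the sources used here.

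RefSeq promoter windows, from 250 bases before to 50 bases after the start, were matched for 5 of the 9 genes: Tmem178, Hmga2, Adamts17, Apba1 and Tifab. Because the mutant alleles act on CpG methylation, 3 windows that span the range of CpG content are printed 5′ to 3′ on the strand of the gene (GRCm38.p6), with each CpG in capitals. They are those of Apba1 at chr19:23758626-23758925 on the plus strand, Hmga2 at chr10:120476420-120476719 on the minus strand and Tifab at chr13:56178836-56179135 on the minus strand.
Apba1: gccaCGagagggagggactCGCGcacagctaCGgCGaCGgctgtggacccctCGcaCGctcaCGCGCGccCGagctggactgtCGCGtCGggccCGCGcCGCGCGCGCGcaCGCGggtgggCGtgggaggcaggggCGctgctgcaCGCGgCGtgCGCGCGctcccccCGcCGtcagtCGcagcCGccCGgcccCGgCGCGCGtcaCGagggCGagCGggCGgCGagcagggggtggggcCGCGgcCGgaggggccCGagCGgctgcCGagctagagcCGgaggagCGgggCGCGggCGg
Hmga2: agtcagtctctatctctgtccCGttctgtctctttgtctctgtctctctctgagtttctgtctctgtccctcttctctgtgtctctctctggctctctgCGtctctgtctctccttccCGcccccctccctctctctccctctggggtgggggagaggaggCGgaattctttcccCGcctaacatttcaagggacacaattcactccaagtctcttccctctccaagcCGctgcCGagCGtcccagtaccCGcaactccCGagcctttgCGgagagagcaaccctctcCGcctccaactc
Tifab: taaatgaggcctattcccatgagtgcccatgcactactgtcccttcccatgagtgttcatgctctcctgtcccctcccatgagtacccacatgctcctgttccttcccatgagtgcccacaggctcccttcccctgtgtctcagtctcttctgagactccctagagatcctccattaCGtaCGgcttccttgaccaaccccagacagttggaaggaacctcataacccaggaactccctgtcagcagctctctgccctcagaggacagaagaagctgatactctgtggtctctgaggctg

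The windows differ widely. That of Apba1 held 57 CpG, more than 99.8% of 32851 promoters of 300 bases had, with an observed to expected ratio of 1.15. That of Tmem178 held 37 CpG (94.4% of promoters had fewer), that of Adamts17 17 and that of Hmga2 12. The Tifab window held 2, which only 14.1% of promoters fell below, and the median promoter held 7. Apba1 and Tifab, the pair with the smallest rises over WT, thus stand at opposite ends of CpG content. Methylation itself was not measured.

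Of 11 short motifs searched on both strands of the 5 windows, 8 had no match. These were TTCNNNGAA (the STAT motif, in 8.3% of all promoters), AGGAAGT (ETS, 9.35%), TTGCNNAA (C/EBP, 10.8%) and TGATTTAT (HOX, 0.977%), as well as TGANTCA (AP-1, 7.81%), GAAANNGAA (IRF, 8.56%), AGATAA (bound by GATA factors, 11.2%) and TATAAA (the TATA box, 13.6%). GGGCGG, the core of a GC box, was in 3 windows (Tmem178, Hmga2 and Apba1) and in 35.7% of all promoters. TGTGGT, a core bound by RUNX factors, was in the Tifab window and in 16.8% of all promoters, and CACGTG, the palindromic E-box, in the Adamts17 window and in 7.15%. No motif was shared by all 5 windows.

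Read counts in WT differed widely between the genes. Nov had no read in any WT library. Maob, Hmga2 and Adamts17 had at most 3 reads in each WT library, and Tmem178, Kcnq3 and Plxdc2 had between 2 and 27. Apba1 and Tifab were expressed in WT marrow, with at least 141 reads in each library, so "switched on" does not describe these. Plxdc2 was low but present, above 0.5 CPM in all 3 WT libraries, and Tmem178 and Kcnq3 exceeded that level in 1 WT library each. Of the 12175 genes tested, 4 had no read in WT, and 24 had at most 3 in each WT library, of which 13 had every mutant library above every WT library. All 9 members passed the filter of more than 0.5 CPM in more than 3 libraries, but Nov, Maob, Hmga2 and Adamts17 exceeded that level in no WT library and passed only through the mutants.

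For all 9 genes every mutant library lay above every WT library, which was the case for 16.0% of all genes tested, and since the genes were chosen for this pattern nothing is read from the count.

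**Figure D1:**
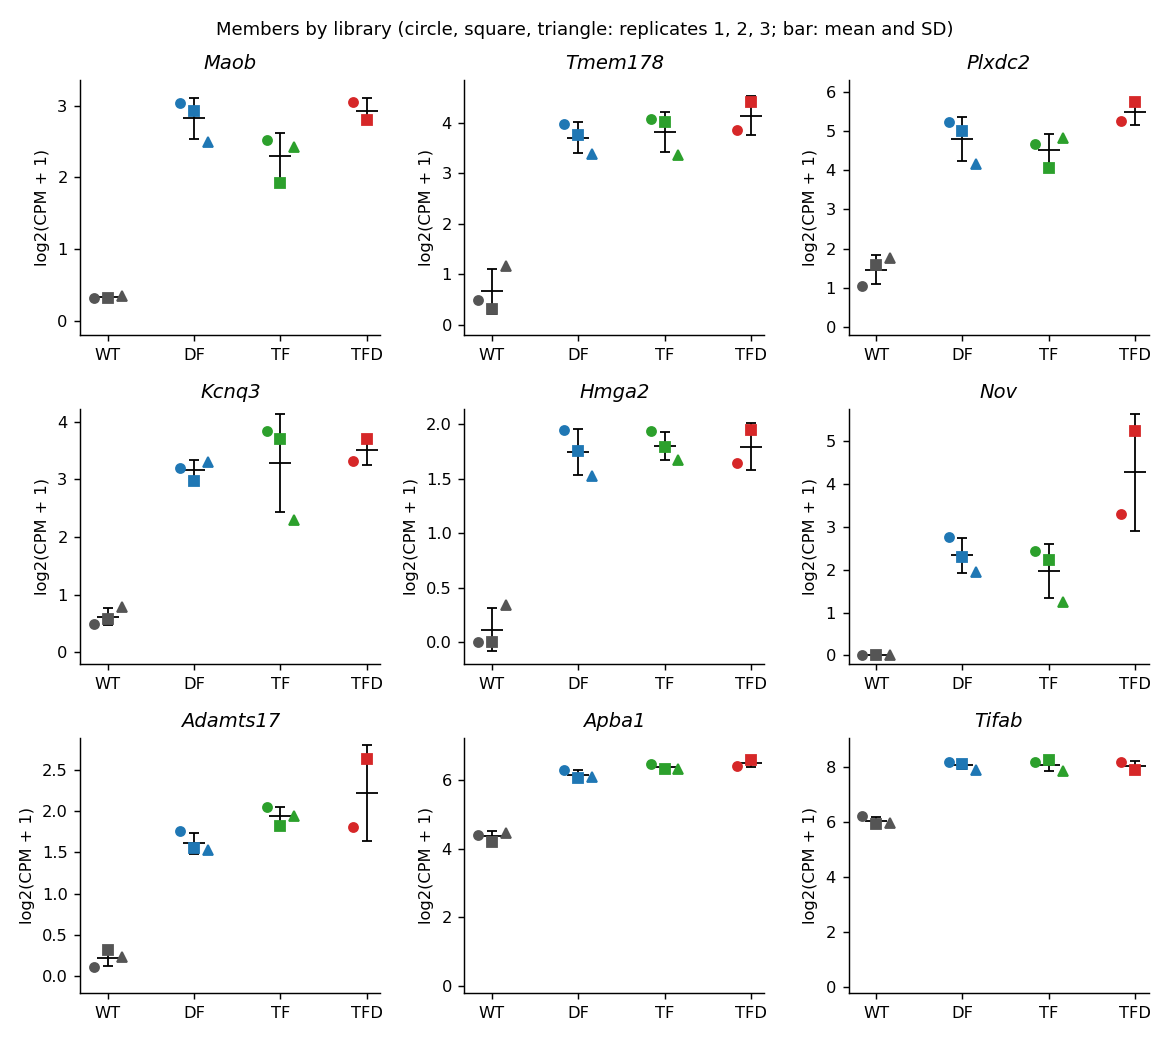
Level of each of the 9 genes, as log2(CPM + 1), in each of the 11 libraries by genotype, with the group mean and SD (n = 3, and n = 2 for TFD). Every mutant library lies above every WT library for each gene, TFD replicate 2 stands apart for Nov at 36.8 CPM, and Apba1 and Tifab start from a clear WT level.

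Nov encodes CCN3, a secreted matrix-associated protein that has been linked to the self-renewal of blood stem cells. It had 0 reads in WT replicates 1, 2 and 3. It had 73, 61 and 29 reads in DF, 55, 45 and 15 in TF, and 143 and 413 in TFD. Against 3 counts over the WT group, the limit that a count of 0 allows, the pooled level was at least 44.7-fold higher in DF, at least 33.9-fold higher in TF and at least 214-fold higher in TFD. TFD replicate 2, at 36.8 CPM, supplied most of the TFD reads, TFD replicate 1 stood at 8.94 CPM, and the DF and TF libraries ranged from 1.37 to 5.79 CPM.

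Adamts17 encodes a secreted metalloprotease of the thrombospondin-repeat family. It had 1, 2 and 2 reads in WT, 30, 30 and 19 in DF, 39, 31 and 31 in TF, and 40 and 58 in TFD. The groups of mutant libraries were tight, at 1.88 to 3.15 CPM in DF and TF, and TFD replicate 2 was the highest at 5.17 CPM. Pooled over the 8 mutant libraries the level was 17.3 times that of WT, with an exact 95% interval for counting error of 7.32 to 53.7.

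Plxdc2 encodes a plexin-domain membrane protein. It had 13, 16 and 27 reads in WT, 462, 477 and 170 in DF, 299, 192 and 300 in TF, and 592 and 584 in TFD. Its WT libraries reached 2.42 CPM and its mutant libraries began at 15.7 CPM. The pooled level was 16.3 times that of WT in DF (counting interval 12.4 to 21.7), 12.5 times in TF (9.51 to 16.7) and 24.3 times in TFD (18.5 to 32.3). Both TFD libraries lay above every DF and TF library, by a narrow margin for TFD replicate 1 (37.0 CPM, against 36.7 CPM in DF replicate 1).

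Kcnq3 encodes a subunit of the slowly activating potassium channel that carries the neuronal M current. It had 5, 4 and 8 reads in WT, 103, 107 and 90 in DF, 165, 146 and 43 in TF, and 144 and 134 in TFD. TF was the most divided group, with replicates 1 and 2 at 13.3 and 11.9 CPM and replicate 3 at 3.92 CPM, the lowest mutant library and still above the highest WT library at 0.716 CPM. The pooled mutant level was 17.1 times that of WT (counting interval 10.6 to 29.4).

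Tmem178 encodes a membrane protein of the endoplasmic reticulum that limits calcium signals during osteoclast formation. It had 5, 2 and 14 reads in WT, 186, 195 and 95 in DF, 196, 185 and 101 in TF, and 217 and 227 in TFD. WT replicate 3 held most of the WT reads, at 1.25 CPM, and the lowest mutant library was TF replicate 3 at 9.21 CPM. The pooled mutant level was 20.8 times that of WT (counting interval 13.5 to 33.7). Without WT replicate 3 the fitted log2 difference of the mutants from WT was 5.29 instead of 4.38.

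Maob encodes monoamine oxidase B, which breaks down amines at the outer mitochondrial membrane. It had 3, 2 and 3 reads in WT, 91, 103 and 47 in DF, 59, 34 and 48 in TF, and 117 and 67 in TFD. The lowest mutant library was TF replicate 2 at 2.78 CPM, and the WT libraries stood between 0.246 and 0.269 CPM. The pooled mutant level was 22.0 times that of WT (counting interval 11.1 to 51.2).

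Hmga2 encodes an AT-hook chromatin protein that is abundant in embryonic cells and in fetal blood stem cells. It had 0, 0 and 3 reads in WT, 36, 37 and 19 in DF, 35, 30 and 24 in TF, and 34 and 32 in TFD. The mutant libraries kept within 1.88 to 2.86 CPM. The pooled mutant level was 25.6 times that of WT, with a wide counting interval of 8.66 to 125 because WT gave 3 reads in all, each from replicate 3. The fitted log2 difference of the mutants from WT, 4.54, was 7.90 without WT replicate 3 and 3.89 without WT replicate 1.

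Hmga2 is a textbook target of the let-7 family of microRNAs, and one mature form is shown with its seed (bases 2 to 8) in capitals, as RefSeq gives it.
mmu-let-7a-5p: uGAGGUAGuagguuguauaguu

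The letters CTACCTC, which pair with that seed, occurred 6 times in the longest of the 2 Hmga2 protein-coding transcripts of GENCODE (3810 bases), and 16.2% of 58797 protein-coding transcripts held them at least once. Levels of let-7 were not measured in these libraries.

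Apba1 encodes an adaptor, also called Mint1 or X11, that binds the amyloid precursor protein and acts in vesicle traffic. It had 247, 141 and 236 reads in WT, 979, 1023 and 682 in DF, 1077, 965 and 858 in TF, and 1340 and 1060 in TFD. The WT level was 19.6 ± 1.93 CPM (SD, n = 3), and the DF, TF and TFD levels were 70.3 ± 6.43 (n = 3), 81.4 ± 4.87 (n = 3) and 89.1 ± 7.54 CPM (n = 2). The pooled mutant level was 3.98 times that of WT (counting interval 3.67 to 4.33).

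Tifab encodes a forkhead-associated domain protein that restrains TRAF6 signalling downstream of innate immune receptors. It had 886, 482 and 684 reads in WT, 3636, 4177 and 2391 in DF, 3532, 3656 and 2477 in TF, and 4520 and 2655 in TFD. The level was 64.5 ± 7.15 CPM in WT (SD, n = 3), 264.7 ± 26.2 in DF (n = 3), 270.1 ± 38.9 in TF (n = 3) and 259.6 ± 32.6 in TFD (n = 2). The 3 mutant means thus lay within 1 SD of one another, and the pooled ratio to WT was 4.09 in DF, 4.16 in TF and 4.04 in TFD.

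Levels can be compared between genes only per length. As RPKM (the CPM divided by the deposited exon length in kilobases), Tifab was the highest member in the mutants at 75.9 ± 8.08 (SD, n = 8), above 93.2% of the genes tested. Apba1 followed at 11.9 ± 1.43, Tmem178 at 8.16 ± 2.12, Plxdc2 at 4.33 ± 1.72, Nov at 3.59 ± 4.93, Kcnq3 at 3.22 ± 1.07 and Maob at 2.27 ± 0.659. The place of Nov rests on TFD replicate 2: its mean was 1.78 RPKM in DF, 1.34 in TF and 9.67 in TFD, and without that library, an alternative chosen after seeing the data, it was 1.87 ± 1.02 (n = 7), below Kcnq3 at 3.09 and Maob at 2.24. Hmga2 at 0.586 ± 0.0892 and Adamts17 at 0.464 ± 0.174 were above only 5.54% and 4.19% of the genes tested. Neighbours in this order overlapped in their spread from Tmem178 to Maob, where the SD of Nov spans its neighbours on both sides, and so did Hmga2 and Adamts17. In WT, Tifab at 18.5 ± 2.04 RPKM (n = 3) and Apba1 at 2.96 ± 0.291 were again first and second, and the other members lay between 0 and 0.376.

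The choice can be placed among all genes by the smallest of the 3 fitted log2 fold changes (DF, TF and TFD, each minus WT), a description of the values that selected the genes. Nov ranked 1 of 12175, Hmga2 4, Tmem178 6, Maob 8, Kcnq3 10, Plxdc2 12 and Adamts17 13, so 7 of the 13 highest genes are members. Tifab ranked 65 at 2.01 and Apba1 92 at 1.84, and no other gene ranked between Adamts17 and Apba1 is a member. The 5 best-ranked genes outside the set with no more WT reads than Tifab were Rprl1 (rank 2), H2afy2 (3), Rnase2a (5), Kcnip3 (7) and Vmn2r26 (9). H2afy2 had 1, 0 and 4 reads in WT and 16 to 94 in the mutant libraries. Kcnip3, an interaction partner of another potassium channel family, had 1, 4 and 5 reads in WT and 56 to 224 in the mutants. Rprl1 is different in kind, with 0 reads in WT and in TFD replicate 2, 1 to 20 in DF, and 622 to 1062 in TF and TFD replicate 1. Rnase2a fell to 2 reads in DF replicate 3 and TFD replicate 2.

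Among the mutant genotypes the question is whether the 9 genes depend on which epigenetic regulator was lost with Flt3 ITD/+, and whether the triple combination adds to the level. No member differed between DF and TF at an adjusted p under 0.05 (0 of 9; edgeR quasi-likelihood test, Benjamini-Hochberg over 12175 genes), where 5.94% of all genes tested were called and 2316 had an unadjusted p under 0.05. At that unadjusted level 1 member stood out, Maob, at 0.64 on the log2 scale in DF over TF (95% CI 0.10 to 1.18, adjusted p = 0.172, edgeR). DESeq2 called 0 of 9 as well. Few calls could follow in part from the choice, which required a rise in every mutant genotype. The intervals give an approximate range for the difference: for Tifab the log2 difference was -0.03 (-0.31 to 0.26), for Apba1 -0.21 (-0.44 to 0.02), and for Hmga2 -0.06 (-0.87 to 0.74).

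The remaining members had broad intervals in the same comparison. Adamts17 stood at -0.46 (-1.15 to 0.23), Kcnq3 at -0.30 (-1.02 to 0.43), Tmem178 at -0.13 (-0.75 to 0.49), Plxdc2 at 0.33 (-0.27 to 0.94) and Nov at 0.40 (-0.82 to 1.62). The intervals of all members other than Apba1 and Tifab thus reach past a 1.5-fold difference in at least 1 direction. The spread of the low members was large among all genes: the biological coefficient of variation of Nov exceeded that of 98.5% of genes and that of Kcnq3 that of 93.9%, against 13.4% for Apba1.

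**Figure D2:**
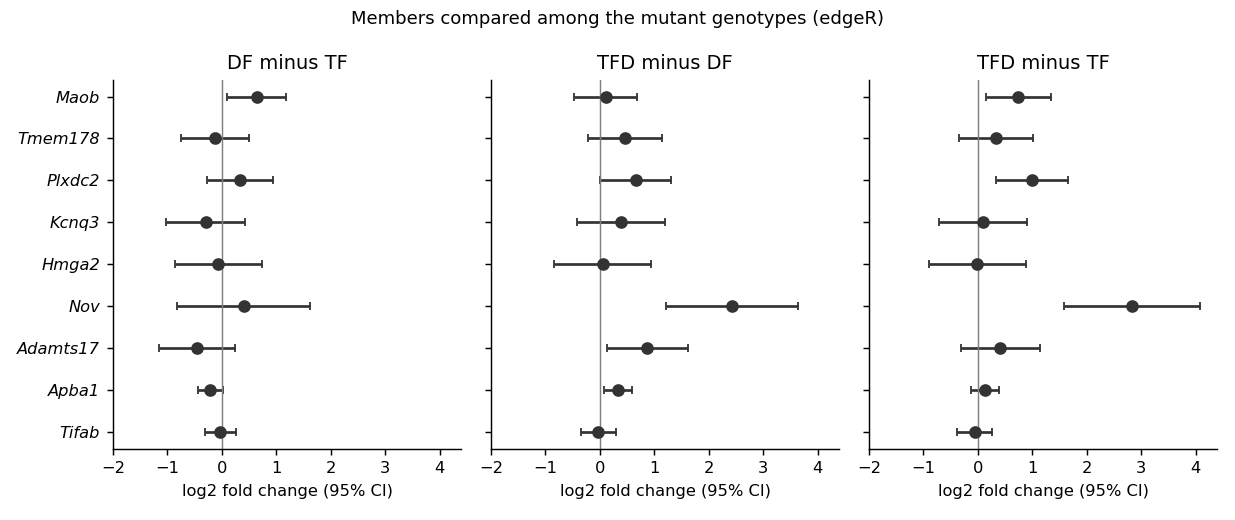
Log2 fold change of each of the 9 genes between mutant genotypes, with approximate 95% confidence intervals derived from the edgeR fit, for DF minus TF, TFD minus DF and TFD minus TF. The intervals of Nov (log2 2.42 and 2.83) and Plxdc2 (0.66 and 0.99) lie to the right of 0 in both comparisons with TFD, as do those of Apba1 and Adamts17 in TFD minus DF and of Maob in DF minus TF and TFD minus TF, and no member passed an adjusted p of 0.05.

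In TFD against DF, 0 of 9 members and 0% of all genes passed (1727 genes had an unadjusted p under 0.05), and DESeq2 called 0 members. In 8 of 9 members the estimate was higher in TFD, with a median log2 fold change of 0.39 beside -0.01 over all genes tested, and 4 members had an unadjusted p under 0.05: Nov, Apba1, Adamts17 and Plxdc2. In TFD against TF, 0 of 9 members and 0.0164% of all genes passed (edgeR). By edgeR 1068 genes and 3 members (Nov, Plxdc2 and Maob) had an unadjusted p under 0.05, and DESeq2 called 1 member, Nov. All shares of genes called are those of edgeR. The share that DESeq2 called is not given here, so its counts of members have no background in any comparison. Both comparisons use the same 2 TFD libraries, so they are not separate evidence.

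Nov had the largest difference among the mutants. The log2 fold change was 2.42 (SE 0.55, adjusted p = 0.124, edgeR) in TFD over DF, and 2.83 (SE 0.56, adjusted p = 0.191, edgeR) in TFD over TF. Against the mean of DF and TF it was 2.62 (SE 0.46, adjusted p = 0.189, edgeR), and DESeq2, which called 1 member there against 0 by edgeR, gave 2.66 (adjusted p = 0.0447). Over 20 alternatives the adjusted p ranged from 0.0119 to 0.95 for TFD over DF, from 0.00925 to 0.737 for TFD over TF and from 0.00435 to 1 for the last comparison. The call depends on single libraries. Without TF replicate 3 the value for TFD over DF was 2.42 with edgeR adjusted p = 0.026. Without TFD replicate 1 the log2 fold changes were 3.12 over DF and 3.52 over TF with edgeR adjusted p = 0.0119 and 0.00925, and without TFD replicate 2 they were 1.12 and 1.50 with edgeR adjusted p = 0.95 and 0.69.

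Both TFD libraries nevertheless lay above every DF and TF library for Nov, as they did for 2 of 9 members (Plxdc2 and Nov) and for 2.68% of all genes tested. Both lay below every DF and TF library for 0 of 9 members and for 4.51% of all genes tested. TFD replicate 2 was among the 3 libraries with at least 10000 Xist reads, and TF replicate 3, where Nov was lowest, was another. With a term for such libraries the log2 fold change of Nov was 1.99 in TFD over DF (adjusted p = 0.327, edgeR) and 2.52 in TFD over TF (adjusted p = 0.144, edgeR).

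Plxdc2 and Adamts17 moved less. Plxdc2 was 0.66 higher on the log2 scale in TFD than in DF (95% CI 0.0014 to 1.31, adjusted p = 0.351, edgeR) and 0.99 higher than in TF (0.33 to 1.65, adjusted p = 0.339, edgeR). Adamts17 stood 0.87 above DF (0.13 to 1.61) and 0.41 above TF (-0.32 to 1.14). Tifab and Hmga2 stayed near 0 in TFD minus DF (-0.03 and 0.05) and in TFD minus TF (-0.06 and -0.01). For Tifab the interval of TFD minus TF, -0.38 to 0.26, is among the narrowest of the set, whereas for Hmga2 it spans -0.90 to 0.88.

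Single libraries stood high or low for several members at once. TFD replicate 2 was the highest of the 8 mutant libraries for 5 of 9 members, with a median level 1.29 times the mutant mean, and TF replicate 3 was the lowest for 4. Across the 8 mutant libraries 31 of the 36 pairs of members had a positive Pearson r of log2(CPM + 1), with a median of 0.485 and a median Spearman rho of 0.369. In exact permutation tests over 40320 orders (two-sided), 7 pairs had p under 0.05 by r and 7 by rho, and after adjustment over the 36 pairs 1 passed by r and 0 by rho. That pair was Adamts17 with Apba1 (r = 0.892, exact permutation p = 0.00117, adjusted 0.042; rho = 0.881, exact permutation p = 0.00724, adjusted 0.23). Without the 2 libraries farthest from the median of Adamts17, DF replicate 3 and TFD replicate 2, r was 0.87. With levels centred on the genotype mean and orders drawn within genotypes, an alternative chosen after seeing the data, r for this pair was 0.758 (exact permutation p = 0.0556, adjusted 0.318), and 0 of 36 pairs passed after adjustment. The 72 such orders allow no p below 0.0139, and 31 of 36 centred r were positive, with a median of 0.489.

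Tmem178 was the member most often found in the high pairs, with r = 0.823 for Hmga2, 0.815 for Nov and 0.743 for Kcnq3 (adjusted exact permutation p = 0.152, 0.152 and 0.206). The lowest pair was Adamts17 with Tifab at r = -0.254 (exact permutation p = 0.597, adjusted 0.826). These libraries share the depth and the cell mixture of each mouse.

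Other genes followed the same profile over the 11 libraries. The 5 non-members with the highest Pearson r with the mean standardized member profile were Amot (0.994), Acot11 (0.994), Csf1r (0.991), Psap (0.989) and Zfyve28 (0.989). Their r reflects the step from WT to mutant that every member shares by choice. They were plainly expressed in WT and rose less than most members: Csf1r, the receptor for the macrophage growth factor CSF1, stood at 156 to 175 CPM in WT and 356 to 499 in the mutants, and Psap, a lysosomal saposin precursor, at 814 to 913 and 2030 to 3050. Amot was at 6.57 to 7.52 CPM in WT and 18.6 to 27.8 in the mutants. Over the 8 mutant libraries alone r was 0.897 for Amot, 0.916 for Acot11, 0.920 for Csf1r, 0.839 for Psap and 0.926 for Zfyve28. The choice of these 5 genes used the same 8 libraries, so these values are raised by that choice as well.

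Cell type markers moved along with the members. Of 12 monocyte and macrophage markers 11 were higher in the mean of the mutant genotypes than in WT (edgeR, adjusted p under 0.05) and 0 lower, beside 22.4% and 19.7% of all genes tested, with a median log2 fold change of 1.41. The largest were Ccr2 at 2.48 and Cx3cr1 at 2.27, above the 2.02 of Apba1 and the 2.03 of Tifab on the same scale. Their summed level was 2020 to 2108 CPM in WT and 5709 to 7108 CPM in the mutants, a ratio of means of 3.1. The markers' part in the members' rise was not tested.

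**Figure D3:**
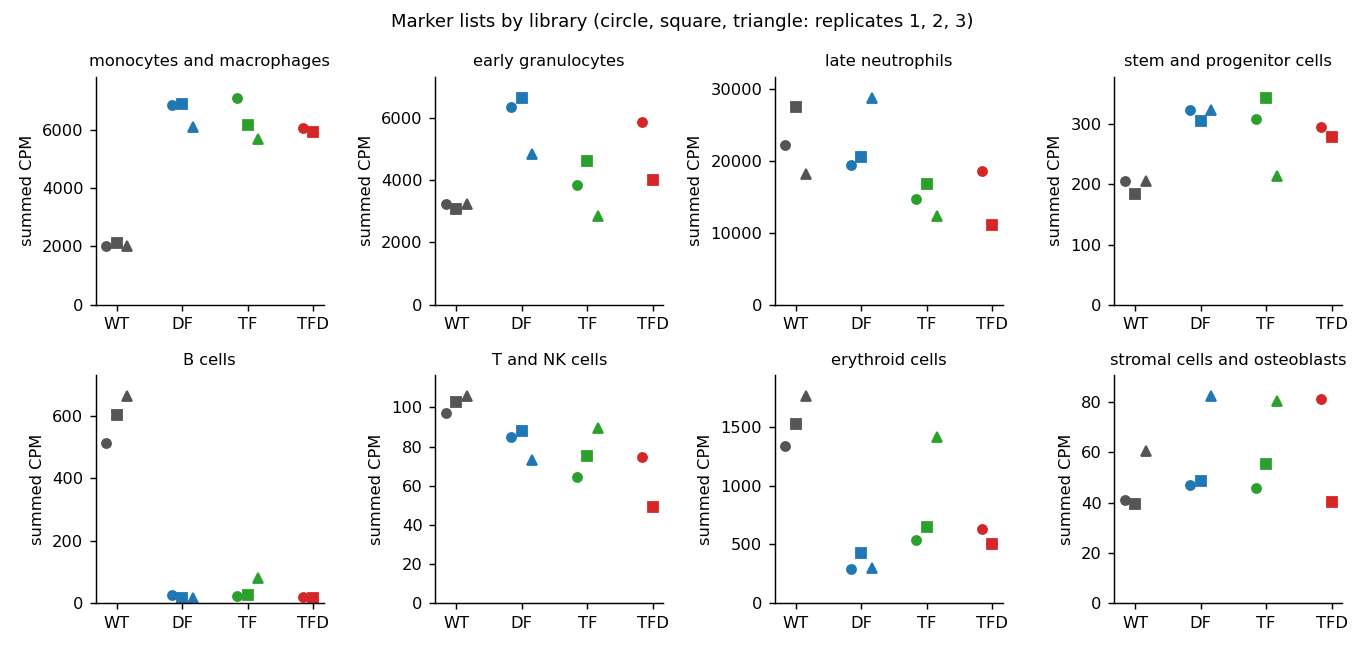
Summed CPM of 8 marker lists in each of the 11 libraries by genotype. Monocyte and macrophage markers lie at 5709 to 7108 CPM in all mutant libraries and at 2020 to 2108 in WT, B cell markers fall to 15.0 to 81.5 CPM, and TF replicate 3 keeps an erythroid level of 1422 CPM.

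Lymphoid and erythroid markers went the other way, beside 22.4% higher and 19.7% lower of all genes tested. All 9 B cell markers were lower (median log2 fold change -5.49, with Rag1 the largest at -7.55), their sum going from 515 to 665 CPM in WT to 15.0 to 81.5 in the mutants. Of 9 T and NK cell markers 8 were lower (Gzma -3.70), and so were all 8 erythroid markers tested (Ermap -3.04). TF replicate 3, the library lowest for Kcnq3, Tmem178, Nov and Tifab, held the most B cell marker reads of the mutants and an erythroid sum of 1422 CPM, within the WT range of 1344 to 1768. Of 10 stem and progenitor markers 4 were higher and 2 lower (Cd34 1.87), of 7 early granulocyte markers 3 were higher (Ctsg 0.83), and of 8 late neutrophil markers 2 were lower (Cxcr2 -0.86).

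Dendritic and plasmacytoid dendritic cell markers divided, with 4 of 10 higher and 4 lower (Siglech -3.54), beside the same 22.4% and 19.7% of all genes tested. Of 9 eosinophil, basophil and mast cell markers tested 3 were lower (Il5ra -1.59), and the largest difference among 8 megakaryocyte markers was that of Treml1 (-0.74). Of 3 osteoclast markers tested 2 were lower (Acp5 -2.06). Among cells outside the blood lineages, 1 of 8 stromal and osteoblast markers was higher (Pdgfrb 1.75) and 1 of 5 endothelial markers was higher (Tie1 1.54). The stromal sum was 39.5 to 60.5 CPM in WT and 40.3 to 82.5 CPM in the mutants. Pdgfrb, at 2.42 to 4.58 CPM in WT and 6.20 to 15.7 in the mutants, and Tie1, at 4.75 to 6.44 and 8.56 to 23.0, lay higher in every mutant library than in every WT library, as did 16.0% of all genes tested. Each was the single marker called in its list. The part of these cells in the members' rise was not tested.

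The relatives and partners of the members were counted in the same way, and their counts stand beside 22.4% higher and 19.7% lower among all genes tested. Of 38 listed paralogues and family members 15 were tested, and 5 were higher and 2 lower in the mutants (median log2 fold change 0.26). Kcne3, an accessory subunit of KCNQ channels, had the largest difference, 2.01 (SE 0.21, adjusted p = 1.56e-05, edgeR). Maoa, the sister enzyme of Maob, was higher by 1.53 (SE 0.17, adjusted p = 1.83e-05, edgeR), Plxdc1 by 1.22 (adjusted p = 0.000199, edgeR), Adamts10 by 0.71 and Hmgn3 by 0.53. Adamts14 (-1.70) and Adamts5 (-1.22) were lower.

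Several close relatives did not pass the test, with Hmga1 at 0.25 (adjusted p = 0.535, edgeR), Apba3 at 0.26 (adjusted p = 0.281, edgeR), Kcnq5 at -0.27 (adjusted p = 0.206, edgeR) and Tifa at -0.26 (adjusted p = 0.101, edgeR). Wisp2, the other CCN gene tested, stood at 0.87 with an SE of 0.66 (adjusted p = 0.31, edgeR). Adamts2 (1.23, SE 0.55, adjusted p = 0.088), Adamts3 (-0.20, adjusted p = 0.331) and Adamts6 (-0.09, adjusted p = 0.721) were not called by edgeR either. The other 23 listed relatives were not among the genes tested.

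Around Tifab, all 12 listed genes of TIFA and TRAF6 signalling were tested, of which 4 were higher and 3 lower. Alpk1, the kinase that activates TIFA on sensing bacterial sugars, had the largest difference (1.79, SE 0.21, adjusted p = 3.12e-05, edgeR), followed by Tab1 (0.51), Irak1 (0.37) and Myd88 (0.34) among the higher. Traf6 itself was lower by a small amount (-0.28, adjusted p = 0.0214, edgeR), with Tab3 (-0.56) and Usp15 (-0.67). Around Hmga2, 7 of 10 genes of the let-7 and LIN28 axis were tested, with 0 higher and 3 lower: Lin28a (-0.56), Zcchc11 (-0.54) and Zcchc6 (-0.47), the last pair being enzymes that add uridine to RNA.

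Of 9 tested NOTCH and integrin partners of CCN3, 2 were higher and 1 lower. Itgb5 was higher by 1.40 (SE 0.12, adjusted p = 2.73e-06, edgeR) and Itgb3 by 0.46 (adjusted p = 0.0288, edgeR). Hes1, a target of NOTCH signalling, was lower, at -2.32 on the log2 scale (SE 0.38, adjusted p = 0.000396, edgeR), while Notch1 stood at 0.05 (adjusted p = 0.699, edgeR). Of 6 tested genes of monoamine metabolism 1 was higher, Maoa, and 3 were lower: Aldh1a1 (-3.35), Hdc, which makes histamine (-1.34), and the vesicular transporter Slc18a2 (-0.56).

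The nearest tested genes on either side of the members were not used for the choice. Of 18 such neighbours 9 were higher in the mutants and 3 lower by edgeR, beside 22.4% and 19.7% of all genes tested, 6 were not called, and the log2 fold changes ran from -1.07 to 1.81 with a median of 0.363. Maoa, 21.5 kb from Maob, was described above, and Fundc1 on the other side stood at 0.58. H2afy, 38.2 kb from Tifab, was higher by 1.26 (SE 0.12, adjusted p = 8.27e-06, edgeR), and Tgfbi, 431 kb away, by 0.90. Enpp2, 84.9 kb from Nov, was higher by 1.81 (SE 0.36, adjusted p = 0.00168, edgeR), from 0.978 CPM in WT to 3.46 CPM in the mutants, and Ext1 by 0.39.

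**Figure D4:**
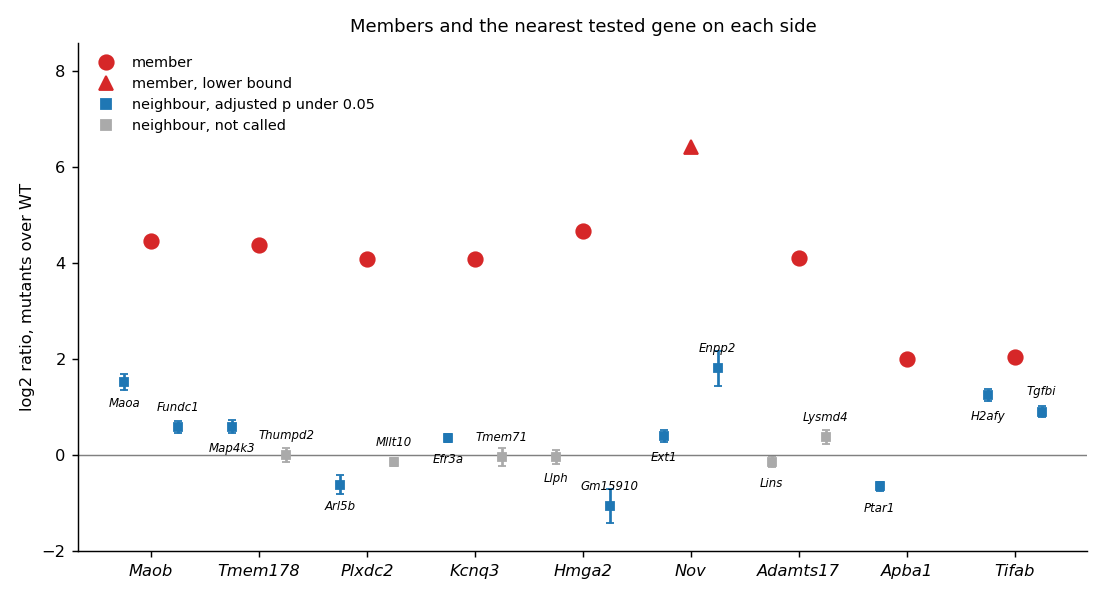
Log2 ratio of mutants over WT for each of the 9 genes (pooled counts, a lower bound for Nov) and log2 fold change ± SE for the nearest tested gene on each side (edgeR fit; for Apba1 on 1 side). Neighbours lie between -1.07 and 1.81, and the members were chosen for their rise.

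The neighbours of the other members went in either direction or did not pass the test. Thumpd2, 24.5 kb from Tmem178, stood at 0.00 (SE 0.14, adjusted p = 0.984, edgeR), and Lins and Lysmd4 beside Adamts17 at -0.14 and 0.37 (adjusted p = 0.33 and 0.0649, edgeR). Llph beside Hmga2 stood at -0.04 (adjusted p = 0.859, edgeR), and Gm15910 on its other side was lower (-1.07, adjusted p = 0.0285, edgeR). Beside Kcnq3, Efr3a was higher by 0.35 and Tmem71 stood at -0.04. Beside Apba1, Ptar1 was lower (-0.65). Map4k3 beside Tmem178 was higher (0.59), Arl5b beside Plxdc2 was lower (-0.62), and Mllt10 on its other side stood at -0.15 (adjusted p = 0.182, edgeR).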

How the data were processed

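RNA was extracted from BM cells with Trizol, depleted of globin RNA and sequenced from stranded libraries. The table that the authors deposited was made with STAR (mm10, unique alignments only) and featureCounts on the refGene annotation. Their stated minimum was 0.5 CPM in more than 3 samples, which 24 of its genes miss over the 11 libraries used here. Tool versions are not given in the sources used here. The deposited table gives raw read counts of 12199 genes. The deposited log2 CPM values follow from those counts with a prior count of 0.25 and TMM factors (largest difference 5e-09) and were used only for that check. The gene length that the authors deposited, of another kind than a measurement, is exon length in bases.

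The members and the gene lists were chosen with earlier results of these data known. Counts of 11 libraries, matched to genotypes by column name and label, were fitted in R 4.3.3 with edgeR 4.0.16 (TMM, quasi-likelihood F test, a mean per genotype, 12175 genes passing the same filter over 11 libraries, Benjamini-Hochberg, threshold 0.05). The SE of an edgeR log2 fold change is its absolute value divided by the square root of its F statistic. The 95% intervals use this SE with the t distribution. Both are approximate, above all for genes with few reads such as Nov and Hmga2. CPM use TMM-scaled totals, and RPKM divide these by exon length. Ratios of pooled counts have exact binomial 95% intervals, and these intervals and the floor of 3 counts cover counting error only. The edgeR p values rest on a common spread per gene, taken between libraries within all 4 genotypes and moderated across genes. They do not rest on the 2 or 3 libraries of a genotype alone. The labels do not say whether each library is a separate mouse.

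All 9 members were named, with the gene of largest absolute change in each list, all tested paralogues, the nearest tested gene on each side, and the 5 most alike and 5 next-ranked genes. Other list genes in the text were chosen after their values were seen, and a few genes that fall under these rules are not reported here. Permutation tests, correlations and figures used Python 3.11.15, numpy 2.4.6, pandas 2.3.3, scipy 1.17.1 and matplotlib 3.10.9. On simulated counts of 12175 genes, edgeR recovered 82 of 100 genes changed by a log2 of 1 and 99 of 100 changed by 2 in DF versus TF, with 14 false calls. The changed genes were drawn at random and given the average spread of genes at their level. This recovery need not hold for members with few reads and a larger spread, such as Nov and Kcnq3. Alternatives were RLE factors, library totals, no filter, filterByExpr, DESeq2 1.42.0, limma 3.58.1 voom, only the genotypes compared, a replicate block, an Xist term and each library left out.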

Additional observations from a re-analysis of the deposited data

How the results depend on the processing

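The count of members called was 0 in each comparison among mutants, and each departure from 0 was Nov. It became 1 for TFD versus DF with only the genotypes compared, and 1 with DESeq2 for TFD versus TF and for TFD versus the DF and TF mean. With each library left out the count ranged from 0 to 0 for DF versus TF and from 0 to 1 for the other 3 comparisons, the 1 arising without TF replicate 3 (TFD versus DF) or without TFD replicate 1 (all 3 comparisons), where the lone TFD library is assumed to vary like the other groups. Over 720 refits of single members among mutants, 677 kept direction and call, 36 changed sign and 7, all Nov, passed the threshold. The causes were not tested.

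Sign changes outside the left-out libraries concerned values near 0. In TFD minus DF, Tifab was 0.000126 with RLE factors, 0.000151 with DESeq2, 0.0648 with library totals and 0.0909 with the Xist term, and Hmga2 was -0.0719 with the Xist term. In TFD minus the mean of DF and TF, Tifab was 0.00783 with library totals and 0.0393 with the Xist term, and Hmga2 was -0.0136 with limma voom, -0.0280 with the replicate block and -0.0692 with the Xist term. In DF minus TF, Hmga2 was 0.00530 with the Xist term. With libraries left out, DF minus TF ranged from -0.232 to 0.0428 for Hmga2, -0.143 to 0.05003 for Tifab and -0.333 to 0.00909 for Tmem178. TFD minus DF ranged from -0.13 to 0.26 for Hmga2, -0.16 to 0.13 for Tifab and -0.0539 to 0.272 for Maob. TFD minus TF ranged from -0.22 to 0.19 for Hmga2, -0.192 to 0.0772 for Tifab, -0.28 to 0.39 for Kcnq3 and -0.17 to 0.86 for Adamts17. TFD minus the mean of DF and TF ranged from -0.17 to 0.22 for Hmga2 and -0.18 to 0.10 for Tifab.

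Same-numbered libraries did not deviate together as a group (median correlation 0.03 over 15 pairs, from -0.37 to 0.31, 3 of them over 0.1). With 2 or 3 libraries per genotype these correlations depend on one another, so they cannot exclude a pairing by number. The replicate block left 0 members called in each comparison. Against WT all 180 refits of members kept their sign, but 7 moved by over 1 SD: Hmga2 (log2 4.54) to 3.89, 4.14 and 7.90 without WT replicates 1, 2 and 3, Tmem178 (4.38) to 5.29 without WT replicate 3, Adamts17 (4.05) to 3.67 without WT replicate 1, and Nov (9.35) to 8.53 with DESeq2 and 6.93 with limma voom. The filterByExpr setting kept all 12199 genes and equals no filter. A pseudocount of 0.25 in place of 1 moved the difference from WT by over 1 SD in 7 members, all upwards. WT levels of Nov, Maob, Hmga2 and Adamts17 rest on 0 to 3 reads a library, which limits their ratios.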
